A study of Mus musculus with 15 samples.

Results

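Binding sites of Ring1b and Mel18 were compared in early cardiac mesoderm precursors (MES), which were made from mouse E14Tg2A embryonic stem cells (ESCs). The members were every peak of the MES Ring1b and MES Mel18 lists on chromosomes 1 to 19, without the first 3.04 Mb of chromosome 9. They numbered 8422 of 8641 Ring1b peaks and 4048 of 4165 Mel18 peaks, together 12470 of the 30692 peaks in the 5 lists of the series. A Ring1b peak counted as sharing a site with Mel18 when the deposited mm9 coordinates overlapped by at least 1 bp. Other lists used for comparison were MES Cbx2, MES RYBP and ESC Mel18.

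Each list came from 1 ChIP-seq library, a sequencing library of chromatin pulled down with an antibody against the named protein. The ESC cultures had LIF and the inhibitors of the 2i medium, and MES arose from them under BMP4, for which the labels give a typical dose of 0.1 to 0.3 ng/ml. The labels state that the yield of MES depended strongly on the dose and batch of BMP4, and they name no genotype beyond the cell line. A home-made antibody was used for Ring1b and a commercial one for Mel18, at 5 ug each. With 1 library per side and unknown depth, no difference between the lists has a replicate check, and depth, antibody and binding cannot be told apart. The labelled cell type was not checked against marker genes, since peak lists hold no expression.

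Polycomb repressive complex 1 (PRC1) marks chromatin at silenced developmental genes by adding ubiquitin to histone H2A. Ring1b is its usual catalytic subunit and pairs, as its paralogue Ring1a can, with 1 of several PCGF proteins, which set the type of complex. Mel18, also called Pcgf2, is the PCGF protein of a canonical PRC1 that carries a CBX chromodomain protein such as Cbx2, which reads the H3K27me3 mark. RYBP takes the place of CBX in variant complexes, most of which hold other PCGF proteins. A Ring1b site can therefore belong to a complex with or without Mel18, whereas Mel18 in PRC1 is held together with a RING subunit.

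Most Mel18 sites lay on Ring1b, and in the full lists most Ring1b sites lay away from Mel18. Of the Mel18 peaks, 3293 of 4048 (81.3%, exact Clopper-Pearson 95% interval 80.1 to 82.5) overlapped a Ring1b peak, which left 755 Mel18 peaks without Ring1b. Of the Ring1b peaks, 3563 of 8422 (42.3%, interval 41.2 to 43.4) overlapped a Mel18 peak, which left 4859 without Mel18. The intervals here and below cover counting of peaks only and treat peaks as independent, although 1 stretch can hold several. When the Ring1b list was reduced to its 4048 highest-scoring peaks, 66.1% of Ring1b and 65.5% of Mel18 peaks were shared. That step changed the length and the scores of the Ring1b list together.

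By length, the lists were closer than by number of peaks. Ring1b peaks covered 15.0 Mb and Mel18 peaks 11.8 Mb, and 9.35 Mb lay in both. This was 62.1% of the Ring1b bases and 79.5% of the Mel18 bases. Ring1b peaks with Mel18 held 65.7% of the Ring1b bases although they were 42.3% of its peaks, and Mel18 peaks without Ring1b held 6.15% of the Mel18 bases although they were 18.7% of its peaks. The sites that the lists did not share were thus short ones.

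Sharing varied between chromosomes. Across the 19 autosomes, the share of Ring1b peaks with Mel18 ran from 35.1% on chromosome 9 (interval 30.8 to 39.6) to 53.3% on chromosome 18 (47.2 to 59.4), with a median of 41.6%. The share of Mel18 peaks with Ring1b ran from 73.5% on chromosome 9 (67.0 to 79.3) to 86.1% on chromosome 7 (81.3 to 90.1), with a median of 82.5%. Ring1b peaks outnumbered Mel18 peaks on every autosome, by 1.78 to 2.31 Ring1b peaks per Mel18 peak.

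Few sites were close to the overlap rule. Among the 3772 overlapping combinations of 1 Ring1b and 1 Mel18 peak, 75 shared 100 bp or less, and the median overlap was 1566 bp. Just inside the rule, 30 Ring1b peaks and 30 Mel18 peaks had 100 bp or less as their largest overlap. Just outside it, 50 Ring1b peaks and 40 Mel18 peaks lay within 100 bp of a peak of the other list. At chr5:138226995-138228332, a Ring1b peak ended 2 bp before the Mel18 peak chr5:138228335-138229984. At chr15:57908177-57910959, a Mel18 peak of 2783 bp began 5 bp after the Ring1b peak chr15:57906091-57908171. Such neighbours were counted as unshared.

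The share of peaks with a partner went with the score. The score is the authors' own value per peak. Its scale is not stated, so it was used only to rank peaks within 1 list. Each list was divided into 10 score deciles, of which decile 1 is the lowest. In decile 1 of the Ring1b list 14.1% of peaks (interval 11.8 to 16.7) had Mel18, in decile 5 31.2%, and in decile 10 96.4% (interval 94.96 to 97.6). In the Mel18 list, 38.4% of peaks (33.6 to 43.3) had Ring1b in decile 1, 88.6% in decile 5 and 99.8% (98.6 to 99.99) in decile 10. Ring1b peaks thus reached near-complete sharing only at the top of their list, whereas 96.0% of Mel18 peaks already had Ring1b in decile 6. The Ring1b list was the longer one, with 8422 peaks against 4048. With lists of equal length, the shares over whole lists were 66.1 and 65.5%. The part of list length in the decile contrast was not tested.

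**Figure D1:**
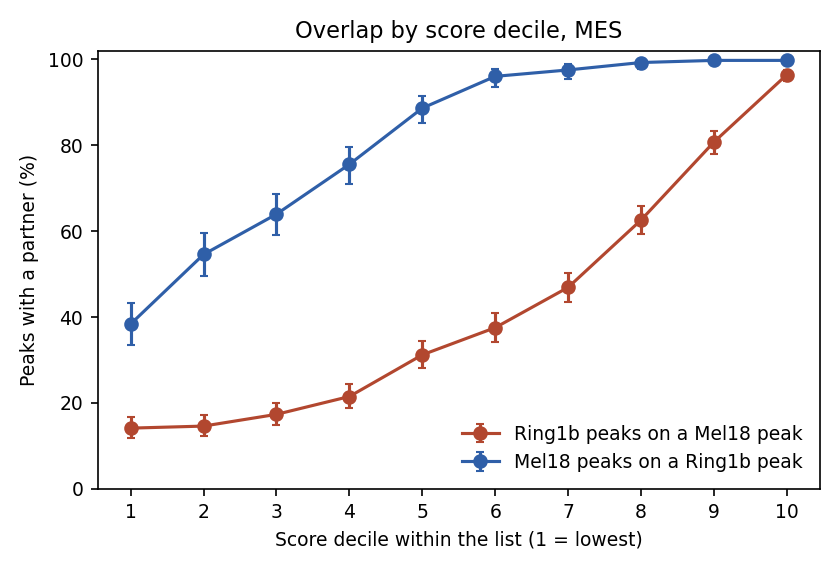
Share of MES Ring1b peaks on a MES Mel18 peak (red) and of MES Mel18 peaks on a MES Ring1b peak (blue), in percent, by score decile within each list. Points are shares and bars exact 95% intervals. The Mel18 curve lies above the Ring1b curve in every decile, and the curves end at 99.8% and 96.4%. The lists differ in length, with 8422 Ring1b and 4048 Mel18 peaks.

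Shared peaks were wider than unshared ones in both lists. Ring1b peaks with Mel18 had a median width of 1794 bp (exact order-statistic 95% interval 1743 to 1838), against 990 bp (976 to 1005) for those without. Mel18 peaks with Ring1b had a median width of 2190 bp (2131 to 2264), against 879 bp (833 to 912) for those without. A wider peak can meet a partner more easily, so width and overlap are not independent measures. With only the 50% highest-scoring peaks of the lists, the Ring1b difference of 804 bp became 1243 bp.

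The wide end of the distribution was shared without exception for Ring1b and Mel18 alike. All 145 Ring1b peaks of 10 kb or more had Mel18, and all 170 Mel18 peaks of that width had Ring1b. No Ring1b peak without Mel18 exceeded 5383 bp, and no Mel18 peak without Ring1b exceeded 7390 bp. Peaks under 1 kb made up 50.8% of the Ring1b peaks without Mel18 and 61.7% of the Mel18 peaks without Ring1b, compared with 18.2% and 9.14% of the shared peaks of the same lists.

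**Figure D2:**
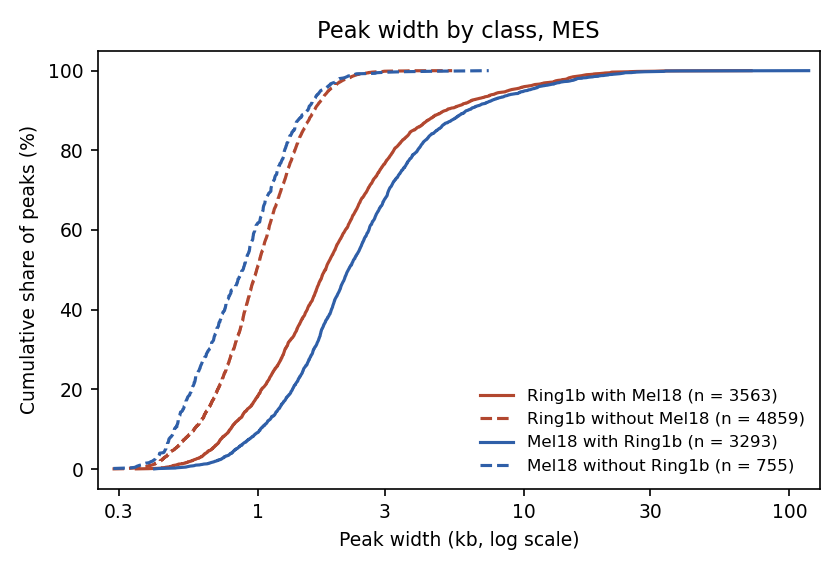
Cumulative share of peaks (percent) against peak width (kb, log scale) for Ring1b with and without Mel18 (red) and Mel18 with and without Ring1b (blue), solid with and dashed without a partner. The dashed curves lie to the left of the solid ones, at medians of 990 and 879 bp against 1794 and 2190 bp.

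Width separated shared from unshared Ring1b peaks mainly among high scores. Within the highest score quartile, Ring1b peaks with Mel18 had a median width of 2836 bp (n = 1788) and those without 1350 bp (n = 318). In the third quartile the medians were 1429 and 1227 bp. In the lower 2 quartiles the order was the other way, at 961 and 997 bp in the second, and at 738 bp with Mel18 (n = 308) and 796 bp without (n = 1797) in the lowest. Mel18 peaks showed the same order in all quartiles, from 1223 bp with Ring1b against 729 bp without in the lowest to 4580 bp against 904 bp in the highest, where only 4 peaks lacked Ring1b.

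A small group of Ring1b peaks scored high while being narrow, and these rarely had Mel18. Of the Ring1b peaks in the highest score quartile, 133 were narrower than the list's median width, and 22 of them (16.5%, interval 10.7 to 24.0) overlapped Mel18. Among the 1973 wider peaks of that quartile, 89.5% (88.1 to 90.8) did. Narrow Ring1b peaks of any score had Mel18 about as rarely, at 21.2% in the lowest and 22.9% in the second width quartile. RYBP was found at 62.4% of the narrow high-scoring peaks and Cbx2 at 16.5%, compared with 94.8% and 86.7% of the wider ones. This split was chosen after the values were seen. Score and width were correlated within each list, with a Spearman rho of 0.746 over the Ring1b peaks and 0.837 over the Mel18 peaks, as a description.

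The 5 Ring1b peaks with the highest scores among those with Mel18 all overlapped Cbx2, RYBP and ESC Mel18. The first was chr11:84332074-84343888, 11815 bp wide. The others were chr2:170319533-170324099, chr4:88937988-88942842, chr1:122236228-122240843 and chr6:53767325-53772270, at 4567 to 4946 bp. These were broad sites with all the subunits mapped in MES. Of all 1788 Ring1b peaks with Mel18 in the highest score quartile, 95.4% overlapped Cbx2, 95.6% RYBP and 91.4% ESC Mel18. Scores pile up at 3100, which 294 Ring1b peaks with Mel18 reached or passed.

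Ring1b peaks without Mel18 looked different at the top of their ranking. The 5 with the highest scores were chr2:119697596-119699719, chr9:21171345-21173159, chr3:67386046-67387257, chr3:89576334-89577708 and chr4:126754126-126755224. They were 1099 to 2124 bp wide and lay at the 93.6th to 94.9th percentile of the Ring1b scores. All 5 overlapped RYBP, none overlapped Cbx2, and the peaks on chromosome 2 and at chr3:67386046-67387257 overlapped ESC Mel18. Of all 318 peaks without Mel18 in the highest score quartile, 76.7% overlapped RYBP, 8.81% Cbx2 and 21.1% ESC Mel18. The shares over all Ring1b peaks of that quartile were 92.7, 82.3 and 80.8%. For the 5 named peaks, the nearest distances follow. The nearest Mel18 peak was 55850 to 117225 bp away. The widest Ring1b peak without Mel18, chr10:126946105-126951487, was 5383 bp wide and also overlapped RYBP and ESC Mel18 but not Cbx2. Of the 5 widest, all overlapped RYBP and 1, chr8:123058623-123062281, overlapped Cbx2.

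Mel18 peaks without Ring1b were few among high scores. The one with the highest score was also the widest, chr11:96111446-96118835, at 7390 bp, and it overlapped Cbx2, RYBP and ESC Mel18. The next 4 by score, chr13:44826086-44826918, chr7:19716284-19717258, chr3:94281555-94282373 and chr19:47036537-47037460, were 819 to 975 bp wide and lay at the 74.98th to 80.9th percentile of the Mel18 scores. None of these 4 overlapped Cbx2, 2 overlapped RYBP and 3 overlapped ESC Mel18. Among all 755 Mel18 peaks without Ring1b, the shares were 33.8, 23.0 and 18.9%. The Mel18 peak on chromosome 13 lay 322 bp from a Ring1b peak. After the chromosome 11 peak, the widest were chr4:135698421-135703190, chr1:74832283-74835791, chr11:96216975-96219988 and chr15:57908177-57910959, at 2783 to 4770 bp. These 4 lay 5 to 4626 bp from a Ring1b peak.

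Unshared Mel18 peaks lay nearer to Ring1b than unshared Ring1b peaks lay to Mel18. The median gap from a Mel18 peak without Ring1b to the nearest Ring1b peak was 18044 bp (interval 13202 to 22639). From a Ring1b peak without Mel18 to the nearest Mel18 peak it was 137528 bp (130608 to 145479). Within 1 kb of the other list lay 202 of 755 unshared Mel18 peaks (26.8%) and 191 of 4859 unshared Ring1b peaks (3.93%). The Ring1b list was also the longer one, and the part of list length in these gaps was not tested.

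Distance went together with Cbx2 at the unshared peaks. Among Mel18 peaks without Ring1b, 189 of 325 (58.2%, interval 52.6 to 63.6) within 10 kb of a Ring1b peak overlapped Cbx2, against 66 of 430 (15.3%, 12.1 to 19.1) farther away. Among Ring1b peaks without Mel18, Cbx2 was at 138 of 476 (29.0%, 24.95 to 33.3) within 10 kb of a Mel18 peak and at 314 of 4383 (7.16%, 6.42 to 7.97) farther away. RYBP did not follow this pattern. It was at 51.5% of the near and 52.8% of the far Ring1b peaks without Mel18, and at 20.3% and 25.1% of the near and far Mel18 peaks without Ring1b. Over all Mel18 peaks Cbx2 was at 73.4%, and over all Ring1b peaks at 40.6%, so the near groups also lay below those shares. With peaks within 1 kb joined, Cbx2 at Mel18 peaks without Ring1b went from 33.8 to 20.5%. The part of split stretches in the near groups was not tested. No test was made of these differences, because peaks of 1 library are not replicates.

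Where both proteins were called, the stretches could mostly be matched peak to peak. Overlapping peaks formed 3084 stretches, and in 2564 of them (83.1%) 1 Ring1b peak and 1 Mel18 peak overlapped only each other, here called unsplit pairs. In 325 stretches 1 Mel18 peak lay over several Ring1b peaks, in 115 stretches 1 Ring1b peak lay over several Mel18 peaks, and in 80 both were split. Splitting was thus more frequent in the Ring1b list. The Mel18 peak over most Ring1b peaks, chr3:128897103-128930849, was 33747 bp wide and met 6 Ring1b peaks of 618 to 16331 bp, which covered 96.5% of it. Mel18 peaks chr13:48750810-48769084 and chr4:88933738-88944960 met 5 Ring1b peaks each. In the reverse case, no Ring1b peak met more than 3 Mel18 peaks, as at chr4:88944193-88957057, chr14:104857059-104865703 and chr5:75546374-75552285, where Mel18 covered 99.3 to 99.9% of the Ring1b peak.

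In unsplit pairs, Mel18 peaks were slightly wider than Ring1b peaks. The median width was 2084 bp for Mel18 and 1809 bp for Ring1b, and the median ratio of Mel18 to Ring1b width was 1.14 (interval 1.13 to 1.15). Mel18 was the wider in 1885 of 2564 pairs (73.5%, interval 71.8 to 75.2). The Mel18 edge lay outward of the Ring1b edge by a median of 106 bp at the lower coordinate and 124 bp at the higher one, and by 147 bp (139 to 159) for the average of both edges of a pair. These are medians over pairs, and a single pair could extend on 1 side only. Read depth and calling set edges as well as binding does, and their part was not tested.

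**Figure D3:**
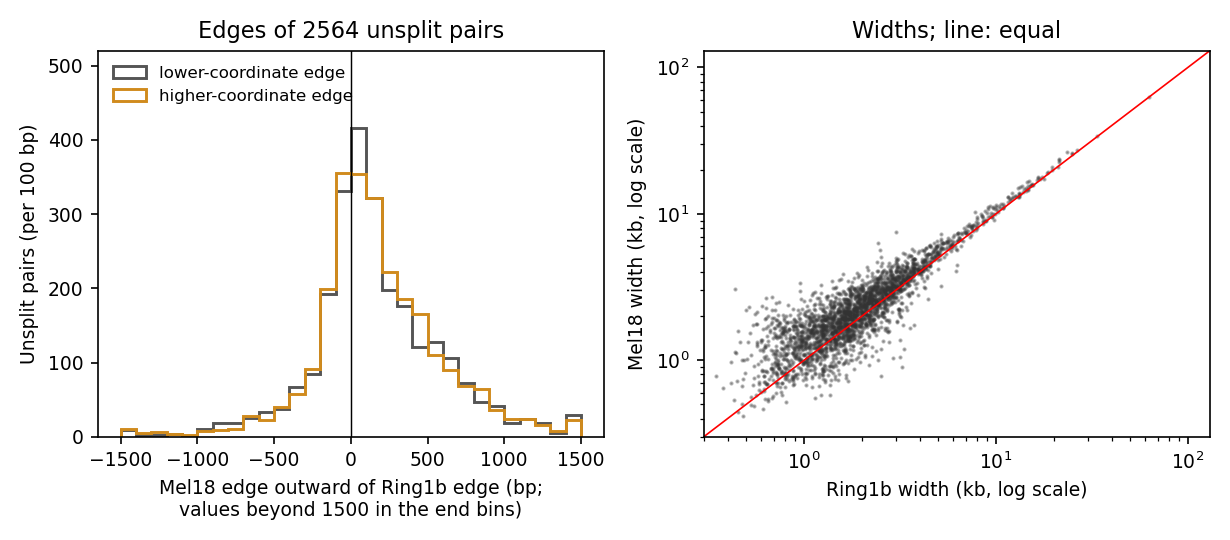
Left, number of unsplit pairs by the distance (bp, bins of 100 bp) at which the Mel18 edge lies outward of the Ring1b edge, for the lower-coordinate and higher-coordinate edge; right, Mel18 against Ring1b width (kb, log scales) with the line of equal width. Both edge distributions lean to positive values, with medians of 106 and 124 bp, and 1885 of 2564 pairs lie above the line.

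The nesting of the pairs showed the same lean. In 1148 pairs (44.8%) the Ring1b peak lay inside the Mel18 peak, in 275 (10.7%) the Mel18 peak lay inside the Ring1b peak, and in 1141 (44.5%) the peaks were staggered. Centres lay a median of 169 bp apart, and within 500 bp in 89.3% of pairs. Both edges matched within 250 bp in 31.0% of pairs and within 500 bp in 59.7%. The overlap was a median of 76.9% of the combined length, with 49.0% at the 10th percentile of pairs and 93.6% at the 90th. Large disagreement in width was rare: Mel18 was more than 2 times as wide in 138 pairs and Ring1b in 24.

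The width ratio depended on the score. By Ring1b score quartile, the median ratio of Mel18 to Ring1b width was 1.51, 1.30, 1.12 and 1.10 from lowest to highest. By Mel18 score quartile it was 1.04, 1.15, 1.20 and 1.11, so the decline was seen only when pairs were ordered by Ring1b score. A low-scoring Ring1b peak is also a narrow one, at a median of 795 bp in the lowest quartile and 2689 bp in the highest. The part of this in the ratio was not tested. Overlap as a share of the combined length was 57.3% in the lowest and 83.5% in the highest Ring1b quartile. In bp the edges did not come closer in the same way: the average Mel18 edge lay 207, 149, 92 and 167 bp outward from the lowest to the highest Ring1b quartile, and 28.5, 101, 186 and 227 bp by Mel18 quartile. Overlap relative to length was thus greatest in the highest quartile, where peaks were widest.

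Single pairs departed far from this. Mel18 reached farthest beyond Ring1b at chr7:20104610-20110885, where the 6276 bp Mel18 peak began 3375 bp before the 2425 bp Ring1b peak and ended 476 bp after it. The next were chr1:182863892-182866958, by 2861 bp, and chr3:88001574-88009117, by 2810 bp on one side and 1710 bp on the other. Ring1b reached farthest beyond Mel18 at chr6:52263200-52266931, where the 3732 bp Ring1b peak began 3245 bp before a Mel18 peak of 1742 bp that scored near the bottom of its list. There followed chr2:70309967-70313530 and chr8:123010097-123014521. The Ring1b peaks of these last 3 pairs lay at the 58.4th to 84.8th percentile of their list and the Mel18 peaks at the 5.84th to 53.7th.

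Bases of shared peaks that lay under 1 list only were covered unequally by the other subunits. Of the 9.35 Mb in both lists, Cbx2 peaks covered 91.3%, RYBP peaks 66.6% and ESC Mel18 peaks 71.4%. Of the bases of shared Mel18 peaks outside Ring1b peaks (1.68 Mb), Cbx2 covered 70.6%, RYBP 16.6% and ESC Mel18 22.3%. Of the bases of shared Ring1b peaks outside Mel18 peaks (0.530 Mb), Cbx2 covered 58.9%, RYBP 48.7% and ESC Mel18 34.6%. Both kinds include gaps between peaks of the other list in split stretches, besides the outer margins. The bases of shared Mel18 peaks outside Ring1b thus lay mostly within Cbx2 peaks and mostly outside RYBP peaks. RYBP peaks also covered less than Cbx2 peaks of the bases in both lists. The part of peak width and calling in these shares was not tested.

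Score ranks agreed well at strong sites and hardly at weak ones. Over the 2564 unsplit pairs, Spearman's rho between Ring1b and Mel18 scores was 0.811, and between their widths 0.843. These are descriptions across sites, which share their libraries, the calling and the sequence under the peak. With both widths held constant in the ranks, rho of the scores was 0.541. Within the highest Ring1b score quartile rho was 0.871 (n = 1273), against 0.261 in the third (n = 735), 0.103 in the second (n = 365) and -0.06 in the lowest (n = 191). The lower quartiles span a narrow range of scores, 50.01 to 69.2 in the lowest and 69.3 to 110.5 in the second, and the part of this was not tested.

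**Figure D4:**
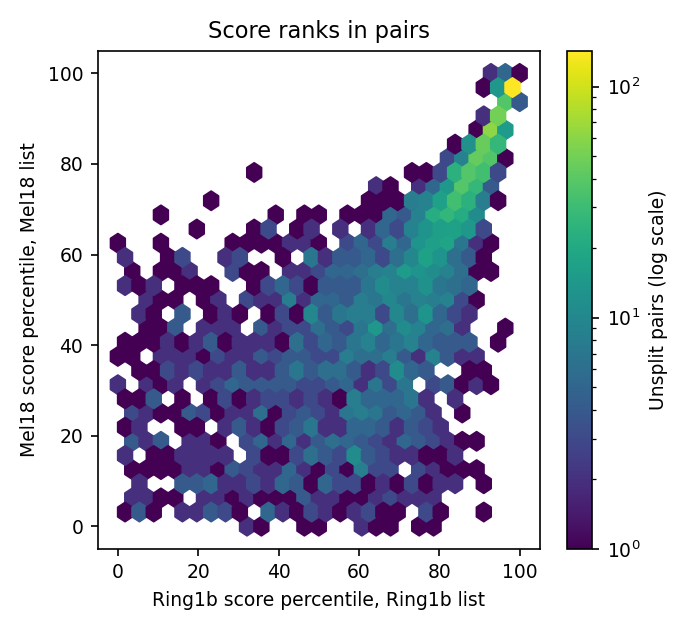
Score percentile of the Mel18 peak in the Mel18 list against that of the Ring1b peak in the Ring1b list for 2564 unsplit pairs; colour gives the number of pairs per cell on a log scale. Pairs gather on a narrow band at the upper right and scatter widely below it, with an overall rho of 0.811.

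Quartile membership was compared as well. The Ring1b and Mel18 peaks of a pair fell in the same score quartile of their lists in 1147 pairs (44.7%), 1 quartile apart in 1065 (41.5%), 2 apart in 310 and 3 apart in 42. From the lowest to the highest Ring1b quartile, 43.5, 44.9, 32.9 and 51.7% of pairs had Mel18 in the same quartile. Over all 2564 pairs, the Mel18 quartiles held 432, 684, 787 and 661 pairs in the same order. The 32.9% was thus near the share of that Mel18 quartile over all pairs. All 42 pairs that were 3 quartiles apart joined a Ring1b peak of the highest quartile with a Mel18 peak of the lowest. The opposite, a Mel18 peak of the highest quartile on a Ring1b peak of the lowest, occurred in 0 pairs. The Mel18 peaks of the highest quartile were paired with Ring1b peaks of the highest quartile in all but 3 cases. Scores pile up at a ceiling of 3100, which both peaks reached or passed in 148 pairs, Mel18 alone in 59 and Ring1b alone in 0. Mel18 met mainly the upper part of a longer Ring1b list. Percentiles of separate lists cannot tell whether Mel18 binding was weaker, equal or stronger.

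Rank agreement was closer where Cbx2 was present. In pairs with a Cbx2 peak rho was 0.864 (n = 2027), and in pairs without one 0.285 (n = 537). With and without RYBP it was 0.842 (n = 2186) and 0.497 (n = 378), and with and without ESC Mel18 0.851 (n = 1967) and 0.488 (n = 597). These groups also differ in the range of their scores, and its part was not tested.

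Pairs that ranked most differently in the lists differed in Cbx2 and RYBP. The unsplit pairs were ranked by each score and divided into 5 equal groups by the difference of ranks. In the group where Ring1b ranked farthest above Mel18, Cbx2 was at 56.3% of pairs (interval 51.8 to 60.6) and RYBP at 92.0% (89.3 to 94.2). In the group where Mel18 ranked farthest above Ring1b, Cbx2 was at 83.8% (80.3 to 86.9) and RYBP at 65.9% (61.6 to 70.0). Cbx2 ran through the 5 groups at 56.3, 80.1, 92.2, 82.8 and 83.8%, from Ring1b ranked higher to Mel18 ranked higher, and RYBP at 92.0, 90.1, 93.0, 85.4 and 65.9%. The middle group, whose ranks differed least, thus had the highest share of both, and each subunit was least frequent at 1 end. The groups also differed in score and width, with a median Ring1b width of 1705, 2028, 3294, 1903 and 1180 bp in the same order, and how far this entered was not tested.

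The pairs with the largest differences of within-list percentile are named here. The largest surplus of Mel18 percentile was at chr3:96395799-96398490, where the Mel18 peak lay at the 61.0th percentile and the Ring1b peak at the 0.297th. All 5 pairs of this kind, with chr7:144497816-144499344, chr8:24167098-24169004, chr10:102496970-102498843 and chr3:142763037-142764665, had Cbx2, and 2 had RYBP. The largest surplus of Ring1b percentile was at chr10:94877717-94880238, with Ring1b at the 89.9th and Mel18 at the 2.06th percentile. All 5 such pairs, with chr5:138228493-138229894, chr11:117514679-117516349, chr8:90795855-90797087 and chr1:157090682-157092545, had RYBP, and only the first had Cbx2. Across all 2564 unsplit pairs, Cbx2 was at 79.1% and RYBP at 85.3%, so having either was common in general.

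Other PRC1 lists, which took no part in forming the classes, separated the kinds of Ring1b site. Over all Ring1b peaks, 40.6% overlapped Cbx2, 65.2% RYBP and 43.2% ESC Mel18. Ring1b peaks with Mel18 overlapped Cbx2 at 83.2% (interval 82.0 to 84.5), RYBP at 82.4% (81.1 to 83.7) and ESC Mel18 at 76.1% (74.7 to 77.5). Ring1b peaks without Mel18 overlapped Cbx2 at 9.30% (8.50 to 10.2), RYBP at 52.6% (51.2 to 54.1) and ESC Mel18 at 19.04% (17.9 to 20.2). The classes thus lay farther apart in Cbx2, the canonical subunit, than in RYBP, the variant one. The RYBP list was also the longer one, with 7492 peaks on the chromosomes compared against 3600 for Cbx2. The part of list length was not tested.

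**Figure D5:**
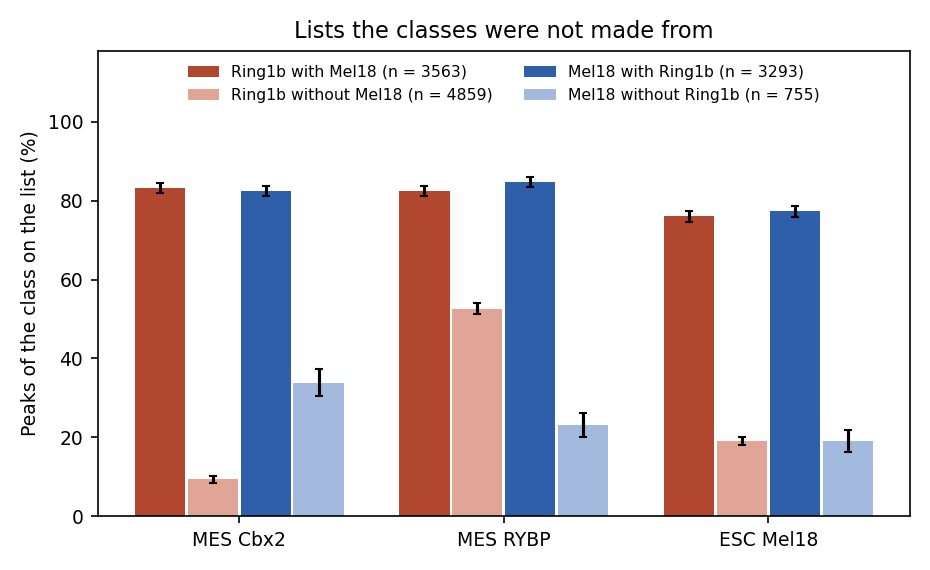
Share of peaks (percent) of each class that overlapped a MES Cbx2, MES RYBP or ESC Mel18 peak; bars are shares and error bars exact 95% intervals. Ring1b without Mel18 stands at 9.30% for Cbx2 and 52.6% for RYBP, and Mel18 without Ring1b at 33.8% and 23.0%.

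Some combinations made the contrast plainer. Among Ring1b peaks without Mel18, 2012 (41.4%) overlapped none of the other lists, 1641 (33.8%) overlapped RYBP alone, 553 (11.4%) RYBP with ESC Mel18, and 151 all 3. Among Ring1b peaks with Mel18, 2118 (59.4%) overlapped all 3, 93 (2.61%) none, 144 (4.04%) RYBP alone and 290 (8.14%) RYBP with ESC Mel18. Over all Ring1b peaks, the shares were 24.99% for none, 21.2% for RYBP alone, 10.01% for RYBP with ESC Mel18 and 26.9% for all 3. The share with RYBP and ESC Mel18 thus differed little between the classes. Peaks with RYBP alone and without Mel18 had a median width of 1088 bp, and peaks with no partner at all 856 bp. Those with Mel18 and all 3 other lists had a median of 2387 bp.

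At Ring1b peaks without Mel18, Cbx2 was scarce at every level of the Ring1b score, whereas RYBP was more frequent at higher scores. From the lowest to the highest Ring1b score quartile, Cbx2 was at 7.85, 9.10, 12.0 and 8.81% of the peaks without Mel18, and RYBP at 34.0, 55.4, 71.1 and 76.7%. At peaks with Mel18, Cbx2 was at 63.3, 65.6, 76.6 and 95.4%, and RYBP at 49.0, 58.8, 81.5 and 95.6%. The rise of RYBP with score was thus seen in both classes, and RYBP was less frequent without Mel18 in every quartile. In the highest quartile, 28 of 318 peaks without Mel18 (interval 5.93 to 12.5%) and 1705 of 1788 with Mel18 (94.3 to 96.3%) overlapped Cbx2.

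Mel18 sites without Ring1b showed another make-up. Over all Mel18 peaks, 73.4% overlapped Cbx2, 73.2% RYBP and 66.4% ESC Mel18, and with Ring1b the shares were 82.5, 84.7 and 77.3%. Without Ring1b, Cbx2 was at 255 of 755 peaks (33.8%, interval 30.4 to 37.3), RYBP at 174 (23.0%, 20.1 to 26.2) and ESC Mel18 at 143 (18.9%, 16.2 to 21.9). The order of Cbx2 and RYBP rested on how stretches were split into peaks. With peaks of each list within 1 kb joined, 560 Mel18 stretches had no Ring1b, and Cbx2 was at 20.5% and RYBP at 25% of them.

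Nearly as many Mel18 peaks without Ring1b overlapped no other list as overlapped some. None of the other lists overlapped 375 of 755 peaks (49.7%, interval 46.0 to 53.3), and these had a median width of 674 bp and a median score at the 10.9th percentile. Cbx2 alone was at 137 peaks (18.1%), RYBP alone at 52 (6.89%) and all 3 at 43 (5.70%). The shares over all Mel18 peaks were 11.4% for none of the lists, 7.68% for Cbx2 alone, 4.72% for RYBP alone and 50.8% for all 3. By score quartile, 513 of the 755 lay in the lowest, 211 in the second, 27 in the third and 4 in the highest. Cbx2 was at 22.8% of those in the lowest quartile and 56.9% in the second, compared with 44.3% and 69.8% of Mel18 peaks with Ring1b in the same quartiles. In the lowest quartile, 61.4% of the peaks without Ring1b and 36.0% of all Mel18 peaks overlapped none of the other lists.

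Ring1b and Mel18 were also compared along long stretches rich in peaks. Where both had peaks, they mostly covered similar shares. The stretches were taken from the ESC Mel18 list, by joining peaks within 10 kb, so that neither MES list set their bounds. Of the 5 with most ESC Mel18 peaks, 4 are the Hox clusters, named here from general knowledge of the mouse genome after the values were seen, since no mm9 annotation was used; the RefSeq table of build GRCm38.p6 places Hoxa genes on chromosome 6, Hoxd on 2, Hoxb on 11 and Hoxc on 15. Hox genes encode transcription factors that pattern the body axis and are classic Polycomb targets.

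At the HoxA stretch on chromosome 6, 125.7 kb long, bases under both a Ring1b and a Mel18 peak made up 98.3%. Ring1b used 6 peaks and Mel18 4 peaks for it. At the HoxD stretch on chromosome 2, 109.7 kb long, 90.6% lay under both. The HoxC stretch on chromosome 15 held 0 Ring1b, 0 Mel18 and 0 Cbx2 peaks over 133 kb, and 25 RYBP peaks that covered 52.6% of it. Absence of called peaks does not show absence of binding, which was not tested. At HoxB on chromosome 11, Ring1b had 2 peaks with 3.32% of the length, Mel18 4 peaks with 10.6%, and 3.12% lay under both, while Cbx2 covered 91.8% and 28 RYBP peaks 64.2%. Of the 5 widest Mel18 peaks without Ring1b, 2 overlapped that stretch, including the highest-scoring one. The stretch on chromosome 18 was broken up, with 18 Ring1b and 14 Mel18 peaks and 46.3% of its 53.9 kb under both.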

How the data were processed

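The 5 deposited peak lists gave chromosome, start, end, a name with the MACS tag and 1 score per peak, as the file contents show. Reads were placed on mm9, and Bowtie and TopHat are named without versions, per the submitters' processing notes. Not given in the sources used here are the caller's settings, its control, any pooling of replicates and the read depth. The deposited score has no stated scale and was used only to rank peaks within a list. Starts are printed counted from 1.

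Overlaps, gaps, edges and ranks were computed in Python 3.11.15 (scipy 1.17.1, pandas 2.3.3, numpy 2.4.6, networkx 3.6.1) and drawn with matplotlib 3.10.9. In every one of 20 comparisons of lists, bedtools 2.31.1 gave the same overlap calls, and the code was tested on simulated data. Shares have exact Clopper-Pearson and medians exact order-statistic intervals at 95%. No p-value was computed, since each side had 1 library.

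Named sites follow fixed rules of rank: highest score, greatest width, farthest edge, most partners, largest percentile gap, nearest unshared neighbour and the ESC Mel18 domains with most peaks. Members and rules were chosen with earlier results of these data known. No genes were assigned to peaks and no sequences read, because no mm9 genome was used here. Not analysed here were the 9 RNA-seq libraries and the ChIP-seq library of IgG.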

Additional observations from a re-analysis of the deposited data

Results flagged for a closer look

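Peaks were also called outside the chromosomes compared, in data that the report does not use. On chromosome X there were 206 Ring1b and 117 Mel18 peaks. Of these, 99 Ring1b peaks (48.1%, interval 41.1 to 55.1) overlapped Mel18 and 87 Mel18 peaks (74.4%, interval 65.5 to 82.0) overlapped Ring1b. The X-linked peaks were narrower than the autosomal ones, at a median of 758 bp for Ring1b and 1136 bp for Mel18 against 1189 and 1879 bp, with no test made. In the first 3.04 Mb of chromosome 9 there were 12 Ring1b peaks and 0 Mel18 peaks, beside 0 Cbx2, 2 RYBP and 17 ESC Mel18 peaks. Whether those peaks reflect binding was not tested.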

How the results depend on the processing

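No paired analysis was possible because each list came from 1 library. Of 69 values recomputed under other settings, 36 lay beyond the interval of the reported value, and the cause was not tested. Among the 36 was Kendall's tau-b, a different measure that was set against the interval of Spearman's rho. Some comparisons between values turned. The share of Ring1b peaks on Mel18 went from 42.3% to 66.1% with lists of equal length. At Mel18 peaks without Ring1b, Cbx2, RYBP and ESC Mel18 stood at 33.8, 23.0 and 18.9%. After joining they stood at 20.5, 25 and 20.9%, so Cbx2 fell below both others. With centres within 1 kb they stood at 25.4, 23.7 and 24.7%, so ESC Mel18 passed RYBP. Keeping all chromosomes moved none of its 13 values. In what follows, the share of Ring1b peaks on Mel18 precedes that of Mel18 peaks on Ring1b. These were 41.2 and 79.3% with 50% of the shorter peak required, 37.5 and 75.9% with centres within 1 kb, 48.2 and 93.3% with only the 50% highest-scoring peaks of the lists (the upper 50%), 66.1 and 65.5% with lists of equal length, and 39.0 and 83.6% with peaks within 1 kb joined.

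Shared Ring1b peaks exceeded unshared ones in median width by 1243 bp in the upper 50% and 1164 bp after joining. For Mel18 the excess was 1136 bp with centres within 1 kb, 1412 bp in the upper 50% and 1559 bp after joining. The ratio of Mel18 to Ring1b width was 1.12 both after joining and in merged regions, and the Mel18 edge lay 206 bp outward in the upper 50%. The correlation of scores was 0.893 in the upper 50%, 0.841 after joining, 0.843 in merged regions, 0.757 without pairs at the score ceiling and 0.638 as Kendall's tau-b.

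At Ring1b peaks without Mel18, RYBP was at 51.1% with 50% of the shorter peak and 51.2% with centres within 1 kb, ESC Mel18 at 21.4% with centres and 23.6% in the upper 50%, and Cbx2 at 6.37% in the upper 50% and 7.49% after joining. At Mel18 peaks without Ring1b, RYBP was at 18.5% with 50% of the shorter peak. There Cbx2 was at 25.4% and ESC Mel18 at 24.7% with centres within 1 kb, and Cbx2 at 20.5% after joining. In the upper 50%, 136 such peaks had Cbx2 at 47.1%, RYBP at 26.5% and ESC Mel18 at 26.5%. Unknown depth limits every count of unshared peaks.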
